A study of Mus musculus with 2 samples.

Results

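The MAP kinase cascade genes described here are the 43 protein-coding mouse loci whose symbol is Mapk, Map2k, Map3k or Map4k followed by a number, of 21887 protein-coding loci in the RefSeq annotation of GRCm38. They comprise 5 MAP4K, 18 MAP3K, 7 MAP2K and 13 MAPK loci. Clusters of UPF1 eCLIP reads, enriched over input or not, were listed on 33 of the 43, as 481 of the 123349 clusters in the data set. The assignment rule kept only clusters on the strand of the gene, except for the 1 cluster of Map3k8, a gene whose strand was not given. For 5 members the strand was itself taken from their clusters. The rule uses the symbol alone, and the set was picked with earlier results of these data known.

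UPF1 is an RNA helicase best known from nonsense-mediated decay, which removes transcripts whose translation ends too early. It was mapped by enhanced crosslinking and immunoprecipitation (eCLIP), in which RNA fragments that copurify with the protein are sequenced beside an input library made without the pull-down. There was 1 UPF1 immunoprecipitate, set against 1 input, both from cortical neural progenitor cells of mice, grown in culture with B27 supplement, and both carrying the genotype Upf2fl/fl and the label MOCK. The labels name no Cre, do not explain MOCK, and give neither the age nor the number of animals, and with 1 library a side there was no replicate and no test between conditions.

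A MAP kinase cascade passes a signal through kinases that phosphorylate one another in tiers. MAP4Ks act on MAP3Ks, MAP3Ks phosphorylate MAP2Ks on serine or threonine, and MAP2Ks phosphorylate MAPKs on a threonine and a tyrosine of the activation loop. The ERK branch answers mainly to growth factors, the JNK and p38 branches to stress and cytokines, and ERK signalling is known in cortical progenitors for its part in proliferation and in the switch to gliogenesis.

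Each cluster in the deposited list carries the authors' log2 fold of immunoprecipitate over input and a −log10 p. Enriched means a log2 fold of 3 or more with a −log10 p of 3 or more, and a gene is called enriched if it held such a cluster. Read counts were reconstructed from the steps in both columns, and each interval on a fold is an exact Clopper-Pearson 95% interval from those counts, while intervals on shares are Wilson 95% intervals. All cover counting error only. The list gives no library totals, but the reconstruction puts the immunoprecipitate at 2.03 times the reads of the input. Of the markers fixed for the labelled cells, 4 of 6 progenitor genes were enriched, with Slc1a3 highest at a log2 fold of 6.81, while Vim and Pax6 had clusters of 1.65 and 1.56 at most. All 3 astrocyte markers and both oligodendrocyte-lineage markers with a cluster (Olig2 and Pdgfra) were enriched as well. Dcx and Map2 were the enriched neuronal markers, while Rbfox3 had 1 cluster, at a log2 fold of 1.30. Mbp and Tubb3 had no cluster. Over all protein-coding genes with a cluster, 34.0% were enriched. No cluster lay on any of the 3 microglial, 2 endothelial or 2 fibroblast markers. The part of other neural cells in the values below was not tested.

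UPF1 was enriched on 14 of the 33 cascade genes with a cluster (42.4%, interval 27.2 to 59.2). Over all 9704 protein-coding genes with a cluster the share was 34.0%, which lies inside that interval. By cluster, 47 of 481 were enriched (9.77%, interval 7.43 to 12.8), against 11.7% of all clusters in protein-coding genes. Clusters of a gene are not independent, so this interval is likely too narrow. The median over genes of the highest log2 fold was 3.02 in the cascade (quartiles 1.78 and 3.88) and 2.56 over all protein-coding genes (quartiles 1.30 and 3.98). The cascade genes had a median of 8 clusters and all protein-coding genes 6, and the highest fold was not adjusted for that number. Map4k4 and Map3k7 together held 16 of the 47 enriched clusters. With a log2 fold of at least 4 required, the cascade share was 24.2% and that of all protein-coding genes 24.4%. With a −log10 p of at least 5 the shares were 21.2% and 26.1%, and with at least 10 they were 18.2% and 15.8%. Which of these shares was the larger thus depended on the threshold.

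**Figure D1:**
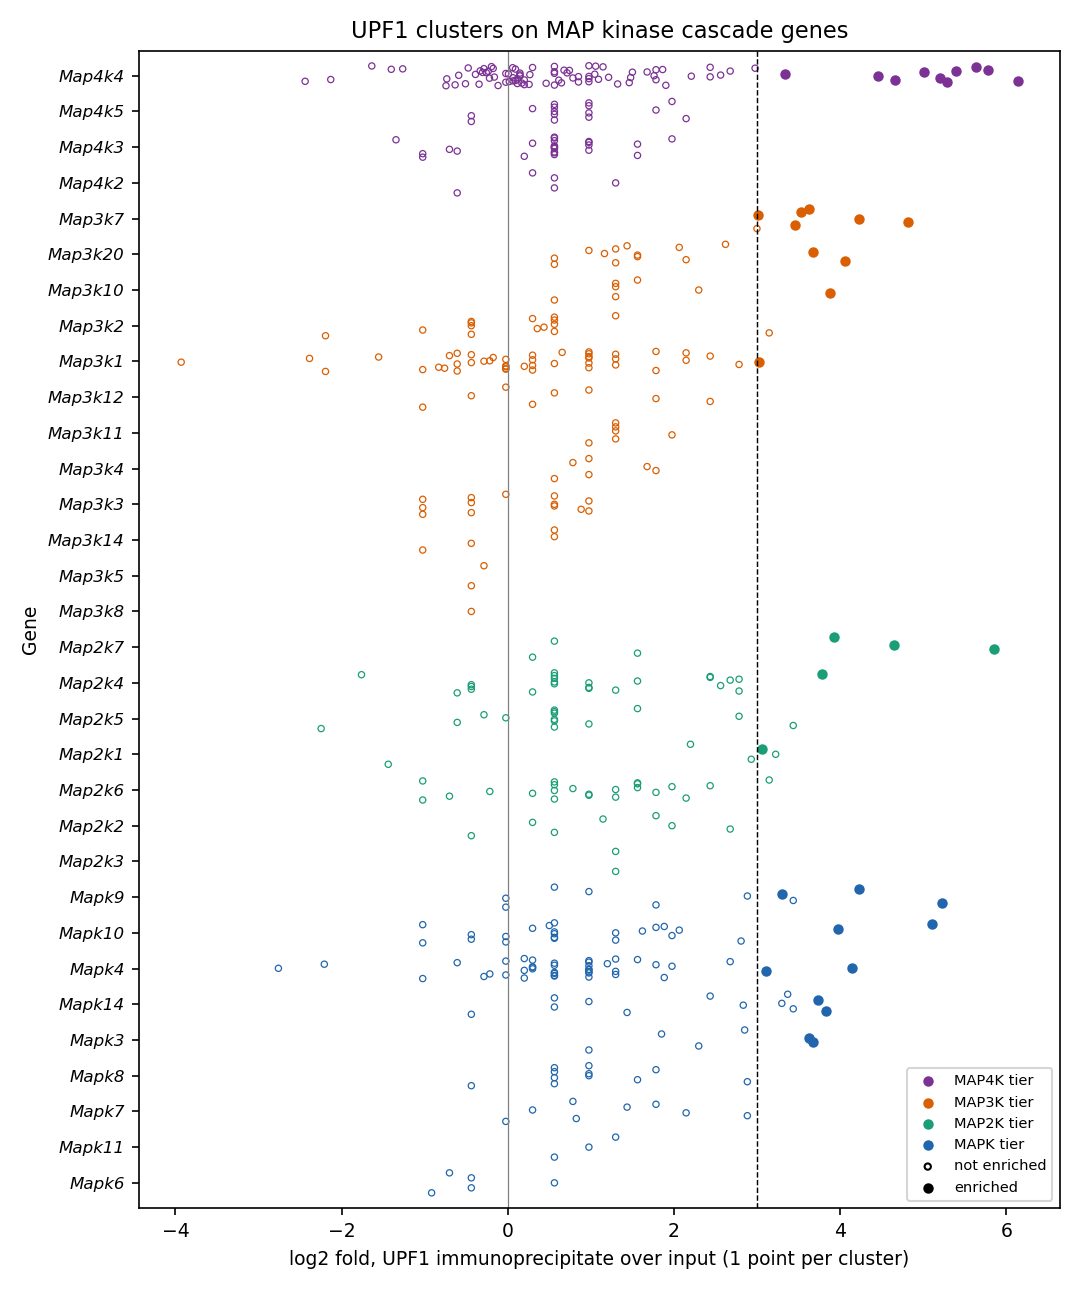
Log2 fold of the UPF1 immunoprecipitate over input (x axis) for each of the 459 clusters on 32 cascade genes (y axis), ordered by tier and by highest fold. Filled points are enriched clusters, open points are not, and the dashed line marks a log2 fold of 3; Map4k4 has the highest fold, 6.14, and 10 filled points.

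The MAP4K tier, the kinases of the Ste20 family at the top of the cascade, was enriched on 1 of 4 genes with a cluster. That gene was Map4k4, a kinase that acts upstream of JNK (chromosome 1, 39900902 to 40026310). It had 91 clusters, the most of any member, of which 10 were enriched. All 10 lay between 144.5 and 1456 nt from the 3′ end of the locus, with log2 folds from 3.34 to 6.14. The highest cluster held 430 immunoprecipitate reads against 3 input reads (interval 4.58 to 8.42), and the deepest of those reconstructed held 557 against 5, at a log2 fold of 5.78. A further pair of Map4k4 clusters sat at the cap of 400 on the −log10 p, at log2 folds of 4.45 and 5.64. The other cluster in the last 5000 nt, 2850 nt from the end, lay at -0.16, and none of the 80 clusters farther away was enriched, with a median of 0.26.

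The other MAP4Ks had clusters but none enriched. Their deepest reconstructed clusters held 8 (Map4k3), 12 (Map4k5) and 5 (Map4k2) immunoprecipitate reads, and at least 24 are needed to pass both thresholds. Map4k3 had 24 clusters with a highest log2 fold of 1.98, Map4k5 had 15 with a highest of 2.15, and Map4k2 had 5 with a highest of 1.30. In Map4k5, 5 clusters lay within 5000 nt of the 3′ end, and their median log2 fold was 0.98, whereas the 11 of Map4k4 had a median of 5.20. These 5 Map4k5 clusters also lay in a further locus, 4930512B01Rik, and were given to Map4k5 by the assignment rule, while those of Map4k4 lay in no other locus. Map4k1, known mainly from blood cells, had no cluster. Why a gene had no cluster was not tested, and bulk libraries do not tell fewer transcribing cells from less RNA per cell.

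The MAP3K tier is the widest, since each MAP3K couples different receptors and stresses to the cascade. Of its 18 loci, 12 had a cluster and 4 were enriched. Map3k7 encodes TAK1, which relays signals of TGF-β family and inflammatory receptors (chromosome 4, 31963492 to 32023470). It had 7 clusters, all within 5000 nt of the 3′ end, and 6 were enriched. Its highest log2 fold was 4.82, from 115 reads against 2 (interval 2.94 to 7.88), and its deepest cluster held 302 against 12. The cluster left out had a log2 fold of 2.998, just under the threshold, with a −log10 p of 6.99. Map3k7 was thus the cascade gene with the largest part of its clusters enriched.

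Map3k20 and Map3k10 were the only members with enriched clusters beyond 5000 nt of the 3′ end. Map3k20 encodes ZAK, a kinase that senses stalled ribosomes (chromosome 2, 72285637 to 72442610). Its enriched clusters lay 40098.5 and 39110.5 nt from the end, with log2 folds of 4.06 (34 reads against 1) and 3.68 (26 against 1). Between them and the end lay other clusters with log2 folds up to 2.62, the last of them 35845.5 nt from the end, and no cluster lay closer. Map3k10, which encodes the mixed-lineage kinase MLK2, had 7 clusters (chromosome 7, 27656375 to 27674630). Its enriched cluster lay 501.5 nt from the 5′ end and 17753.5 nt from the 3′ end, with a log2 fold of 3.88 from 30 reads against 1 (interval 1.29 to 9.23). At the 5′ ends of protein-coding loci (the first 1000 nt, in loci spanning 10000 nt or more) the share of enriched clusters was 1.95%. The annotation used here gives the outer ends of a locus and no exons, so exonic, intronic and untranslated positions could not be assigned to any cluster.

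Map3k1, which encodes MEKK1 (chromosome 13, 111746428 to 111818269), was enriched by 1 of 44 clusters. That cluster had a log2 fold of 3.02 from 33 reads against 2 (interval 1.05 to 6.12), 1976 nt from the 3′ end. Its other clusters included the lowest fold of the cascade, -3.93, at 47411.5 nt from the end. Map3k1, Map3k10 and Map3k20 lost their call when the −log10 p had to reach 5, which left Map3k7 alone in this tier, and Map3k10 and Map3k20 also lost it when clusters with 1 input read were left uncalled. At a log2 fold of 4 or more, Map3k7 and Map3k20 kept theirs.

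Among MAP3Ks with at least 8 clusters and none enriched, Map3k2 (MEKK2) had 15 clusters and reached 3.15, from 18 reads against 1, without passing the p threshold. Map3k3 (MEKK3), which acts upstream of the ERK5 branch, had 13 clusters and reached 0.98. Map3k12, the neuronal kinase DLK, had 8 clusters and reached 2.44. The 2 clusters of Map3k3 within 5000 nt of the 3′ end had a median of -0.23, and the 3 of Map3k12 a median of 0.56. The remaining MAP3Ks with a cluster were Map3k11, Map3k4, Map3k14, Map3k5 and Map3k8, with 1 to 6 clusters each and highest folds between -0.44 and 1.98. The strand of Map3k8 was not given, so its only cluster could not be checked against it. Map3k6, Map3k9, Map3k13, Map3k15, Map3k19 and Map3k21 had none.

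The MAP2K tier, the dual-specificity kinases, had clusters on all 7 genes and was enriched on 3. Map2k7, an activator of JNK (chromosome 8, 4238740 to 4247897), had 3 of 6 clusters enriched, between 1040.5 and 1366.5 nt from the 3′ end. Its highest log2 fold was 5.85, the second highest of any cascade gene, from 117 reads against 1 (interval 3.34 to 11.16). Another of its clusters held 102 reads against 2, at 4.65. Map2k4, the other activator of JNK (chromosome 11, 65688244 to 65788359), had 1 of 23 enriched, at 3.78 from 28 reads against 1 (interval 1.19 to 9.14). It lay among 6 more clusters in the last 2000 nt of the locus, and the median log2 fold of those 7 was 2.68.

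Map2k1, which encodes MEK1 of the ERK branch (chromosome 9, 64185769 to 64253605), had 1 of 5 clusters enriched, at 3.06 from 34 reads against 2. A cluster beside it had a log2 fold of 3.22 from 19 reads against 1 and did not pass the p threshold. Map2k2, which encodes MEK2, had 7 clusters and reached 2.68 from 13 reads against 1. Map2k5, the activator of ERK5, had 14 clusters and reached 3.44 from 22 against 1, 247 nt from its 3′ end, and the p threshold was missed there too. The p38 activators differed in where their clusters lay: Map2k6 had 22 clusters, 21 of them beyond 5000 nt, and reached 3.15, while Map2k3 had 2 clusters, both at 1.30. Map2k1 and Map2k4 lost their call when the log2 fold had to reach 4 or the −log10 p 5, which left Map2k7 alone in this tier, and Map2k4 also lost it when clusters with 1 input read were left uncalled.

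The MAPK tier was enriched on 6 of 10 genes with a cluster (60.0%, interval 31.3 to 83.2), beside 34.0% of all protein-coding genes with a cluster. Of its 140 clusters 22 were enriched (15.7%, interval 10.6 to 22.6), against 11.7% of all clusters in protein-coding genes. All 22 lay within 5000 nt of the 3′ end. Clusters of a gene are not independent, so no trait of the tier is read from the cluster count. Mapk3, which encodes ERK1 (chromosome 7, 126759626 to 126765816), had 2 of 6 clusters enriched, at 3.62 (25 reads against 1) and 3.68 (52 against 2). The higher lay 77.5 nt from the 3′ end. The interval of its log2 fold ran from 1.75 to 6.76.

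The JNK genes were read side by side. Mapk9, which encodes JNK2 (chromosome 11, 49846728 to 49886421), had 3 of 10 clusters enriched, between 2110 and 2844 nt from the 3′ end, and reached 5.22 from 76 reads against 1 (interval 2.70 to 10.55). Mapk10, which encodes the largely neuronal JNK3 (chromosome 5, 102908547 to 103212604), had 2 of 23 enriched and reached 5.11 from 70 reads against 1 (interval 2.58 to 10.43), 4181.5 nt from the end. The next cluster of Mapk10, 4523.5 nt from the end, was the deepest of that gene, with 242 reads against 17. Its −log10 p was 18.53 but its log2 fold was 2.81, so it was not called. Mapk8, which encodes JNK1, had 11 clusters, none of them enriched, and reached 2.88 from 15 reads against 1 (interval 0.18 to 8.28). The 3 intervals overlap, and the difference in calls between the JNK genes was not resolved by these counts.

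Mapk14, which encodes p38α (chromosome 17, 28691342 to 28748405), had 2 of 12 clusters enriched, at 3.73 and 3.83 from 27 and 29 reads against 1. Of its 9 clusters in the last 5000 nt, the median log2 fold was 3.30, and 3 of them had folds above 3 without passing the p threshold. The other p38 genes had little or nothing listed: Mapk11 had 3 clusters with a highest log2 fold of 1.30, and Mapk12 and Mapk13 had none. Mapk4, an atypical MAPK that lacks the usual threonine and tyrosine pair of the activation loop (chromosome 18, 73928486 to 74065434), had 2 of 40 clusters enriched, at 4.15 (36 reads against 1) and 3.11 (35 against 2). Its relative Mapk6 had 5 clusters and reached only 0.56, the value of 3 reads against 1. Mapk7, which encodes ERK5, had 8 clusters, 7 of them near the 3′ end, and reached 2.88. Mapk15 had no cluster. Of the 6 enriched MAPKs, Mapk4 and Mapk14 lost their call when the −log10 p had to reach 5, as did Mapk3 and Mapk14 when the log2 fold had to reach 4, and Mapk10 and Mapk14 when clusters with 1 input read were left uncalled.

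**Figure D2:**
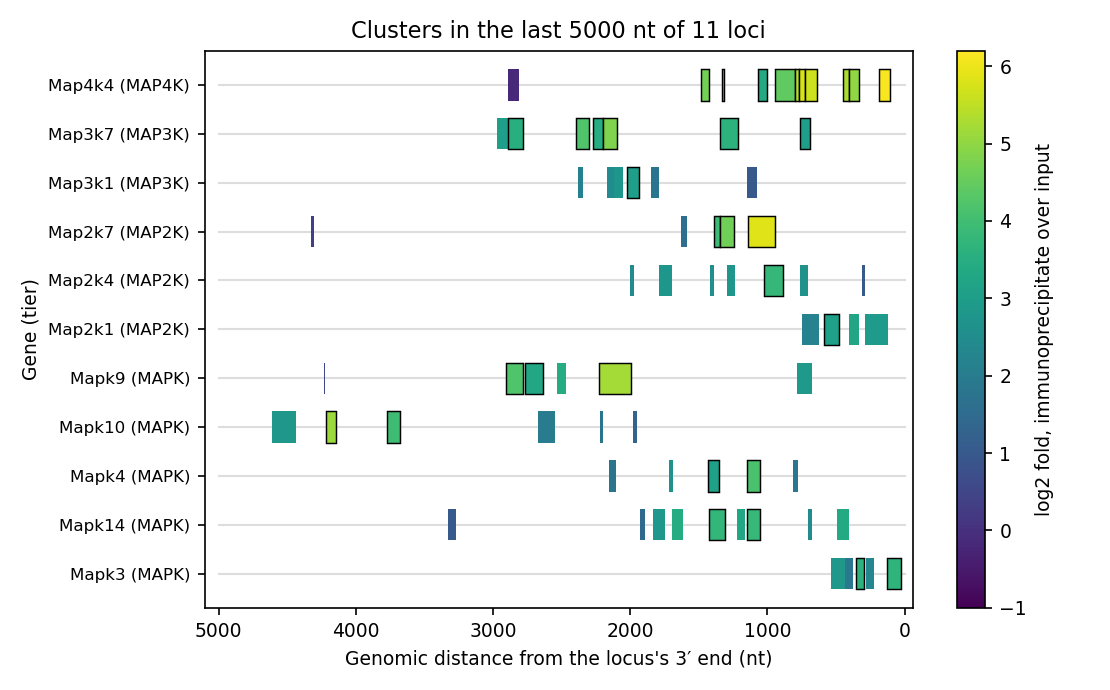
Clusters in the last 5000 nt of 11 cascade loci with an enriched cluster there, drawn to scale by genomic distance from the 3′ end (x axis, nt) and coloured by log2 fold of immunoprecipitate over input; black outlines mark enriched clusters. The enriched clusters of Map4k4 lie within 1456 nt of the end, those of Map3k7 between 728 and 2835.5 nt, and those of Mapk10 at 3722 and 4181.5 nt.

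Across the tiers, the median of the highest log2 fold per gene was 2.06 over 4 MAP4Ks, 2.21 over 12 MAP3Ks, 3.22 over 7 MAP2Ks and 3.76 over 10 MAPKs. The share of genes enriched was 25% for MAP4Ks (interval 4.56 to 69.9), 33.3% for MAP3Ks (13.8 to 60.9), 42.9% for MAP2Ks (15.8 to 74.95) and 60.0% for MAPKs (31.3 to 83.2). All 4 intervals overlap, and each of them covers the 34.0% of all protein-coding genes. The tiers were not tested against each other, since with 1 library a side there is no replicate to test them on.

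Nearly all enriched clusters of the cascade sat at the 3′ end of their locus. Of the 47, 44 lay within 5000 nt of it (93.6%, interval 82.8 to 97.8), and over all protein-coding genes 91.8% did. Distances are genomic, from the middle of the cluster to the outer end of the locus, introns included. Within that window 36.1% of the 122 cascade clusters were enriched (interval 28.1 to 44.9), and 34.5% of those of all protein-coding genes. Beyond it, 3 of 358 cascade clusters were enriched (0.838%, interval 0.285 to 2.43), against 1.39% overall. Within 2000 nt of the end lay 24 of the 47 enriched cascade clusters (51.1%, interval 37.2 to 64.7), against 66.0% over all protein-coding genes. That difference was not tested. Clusters of a gene are not independent and few genes held many of them, so no order is read from it. By gene, 12 of the 27 members with a cluster in the last 5000 nt had an enriched one there (44.4%), and 37.6% of protein-coding genes did.

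**Figure D3:**
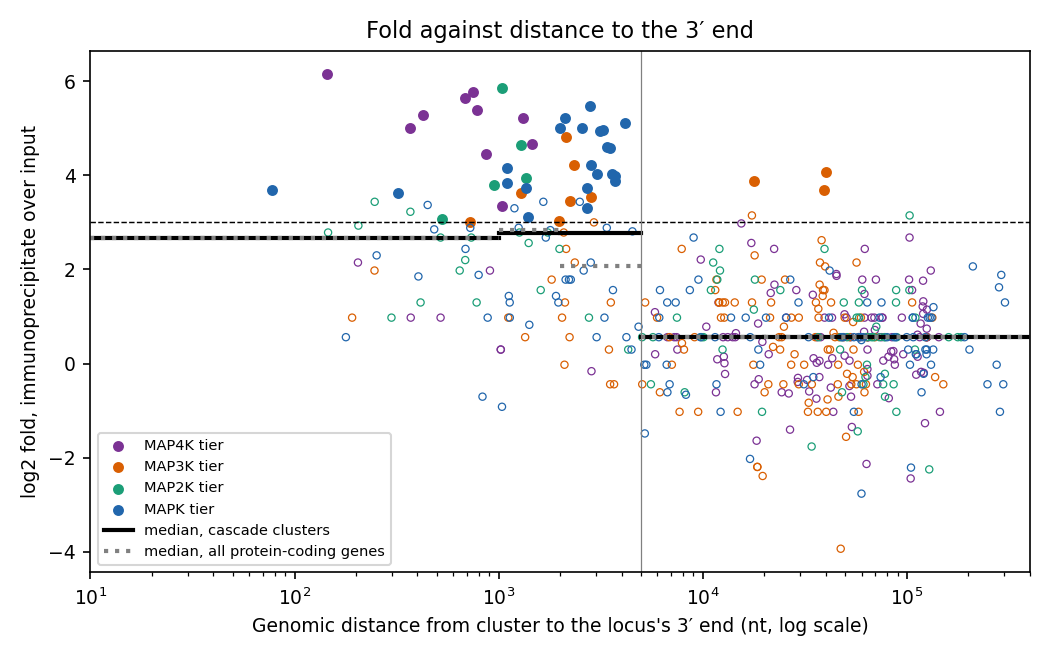
Log2 fold of immunoprecipitate over input (y axis) against genomic distance from the 3′ end of the locus (x axis, nt, log scale) for the cascade clusters, coloured by tier, with enriched clusters filled. Horizontal lines give medians by distance class for the cascade (black) and all protein-coding genes (grey, dotted); both are at 0.56 beyond 5000 nt, and the 3 filled points there belong to Map3k20 and Map3k10.

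Most cascade clusters had few reads. With 1 input read, the smallest count that passes both thresholds is 24 immunoprecipitate reads, and with 2 input reads it is 33. The 45 enriched cascade clusters whose counts could be reconstructed held 25 to 557 immunoprecipitate reads, with a median of 70, against 1 to 12 input reads. In 18 of them the input count was 1. Of 316 cascade clusters with a fold above 0 that were not enriched, 278 held fewer than 24 immunoprecipitate reads and so had too few to pass. By gene, 18 of the 19 members without an enriched cluster had no cluster reconstructed at 24 reads or more. These reads are the numerator of the fold, so the count does not tell low coverage from a lack of enrichment. Counts of the 118 clusters at or below 0 were not reconstructed. A further 8 clusters, in 6 genes, had a log2 fold of at least 3 and missed the p threshold, and 9 passed the p threshold with a lower fold.

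**Figure D4:**
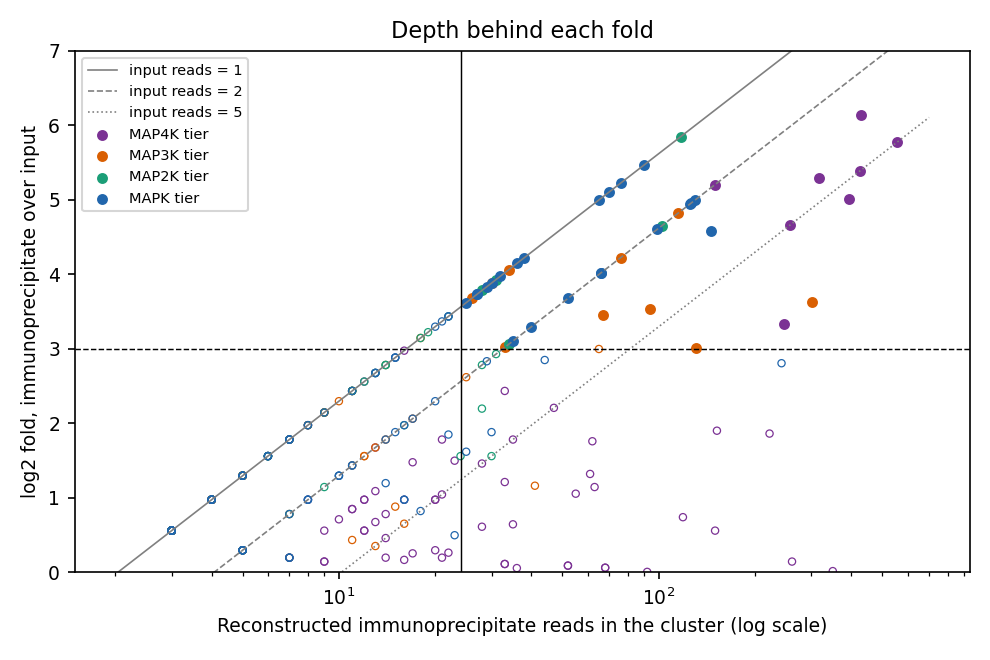
Log2 fold of immunoprecipitate over input (y axis) against reconstructed immunoprecipitate reads (x axis, log scale) for cascade clusters with a fold above 0, coloured by tier, with enriched clusters filled. Grey lines show the fold at 1, 2 and 5 input reads, and the vertical line the 24 reads needed to pass with 1 input read; many enriched clusters lie on the lines of 1 and 2 input reads, and those of Map4k4 reach 557 reads.

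Over all protein-coding genes, those with more clusters were enriched more often, while the shares in the cascade, with 5 to 12 genes in a class, did not follow that order at every step. Of 12 members with 5 to 9 clusters 5 were enriched (41.7%), against 40.8% of all protein-coding genes with as many. Of 8 members with 10 to 19 clusters 3 were (37.5%), against 57.7%, and of 8 with 20 or more 6 were (75%), against 62.1%. None of 5 members with 1 to 4 clusters was enriched, where 9.56% of such genes were overall. Across the 33 members Spearman's rho between the number of clusters and the highest fold was 0.58, and across all 9704 protein-coding genes it was 0.62, as a description of genes that share the same libraries.

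The pathway around the cascade was described from 5 further lists of genes. In the RAS-RAF module, which carries receptor signals to the ERK branch, 6 of 15 genes with a cluster were enriched. Ptpn11, the phosphatase SHP2, reached a log2 fold of 6.19 and had 17 of 23 clusters enriched. Grb2, an adaptor, reached 6.14 with 9 of 15, Nf1, the RAS inhibitor neurofibromin, 6.07 with 19 of 69, and Nras 5.44 with all 7. Braf and Araf, RAF kinases that are MAP3Ks by function though not by symbol, had none enriched: Braf had 33 clusters and reached 2.56, and Araf had 5 and reached 1.09.

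Of 15 scaffolds and partner kinases, all with a cluster, 10 were enriched (66.7%, interval 41.7 to 84.8). By cluster, 51 of their 587 were enriched (8.69%), against 11.7% of all clusters in protein-coding genes. Mapk8ip3, a JNK scaffold of axonal transport, reached 6.27 with 13 of 31 clusters enriched. Tab2, a binding partner of TAK1, reached 5.62 with 5 of 38. The JNK scaffold Spag9 reached 5.33, and Taok1, a further kinase acting on MAP2Ks, 5.08. Mink1 and Taok3 had 20 clusters each without an enriched one, and reached 1.78 and 2.88. Of 10 kinases downstream of MAPKs 5 were enriched: Mapkapk2, the target of p38, reached 6.35 with 9 of 19 clusters, and Mknk1, Mknk2 and Rps6ka2 reached 4.59, 4.47 and 4.22. The 24 clusters of Rps6ka5 reached 2.88 and none was enriched.

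The inhibitors of the cascade were enriched on 2 of 13 genes with a cluster (15.4%, interval 4.33 to 42.2). Spred1, which restrains RAS through neurofibromin, reached 5.68 with 16 of 23 clusters enriched, and Spred2 reached 3.56 with 1 of 21. None of the dual-specificity phosphatases of the list was enriched. Dusp16, with the most clusters of these (24), reached 3.06, and Dusp7 had the highest log2 fold of them, 3.50 from 23 reads against 1. That cluster missed the p threshold, at a −log10 p of 2.79. Of the transcription factors that MAPKs act on or induce, 5 of 16 with a cluster were enriched, with Jun highest at 4.76 and all 7 of its clusters enriched. Elk4 reached 4.73, Ets1 4.37 and Ets2 3.73, while the 39 clusters of Mef2a reached 3.15 and none was enriched. The interval of every list except the scaffolds covers the 34.0% of all protein-coding genes, and no test between lists was made. The lists were not matched for the number of clusters per gene. Of all protein-coding genes with 1 to 4 clusters 9.56% were enriched, and 40.8% of those with 5 to 9. With 10 to 19 clusters it was 57.7%, and with 20 or more 62.1%. The scaffolds ranged from 3 clusters (Traf2, Lamtor3 and Tab3) to 286 (Tnik). What part the number of clusters had in their share was not tested.

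**Figure D5:**
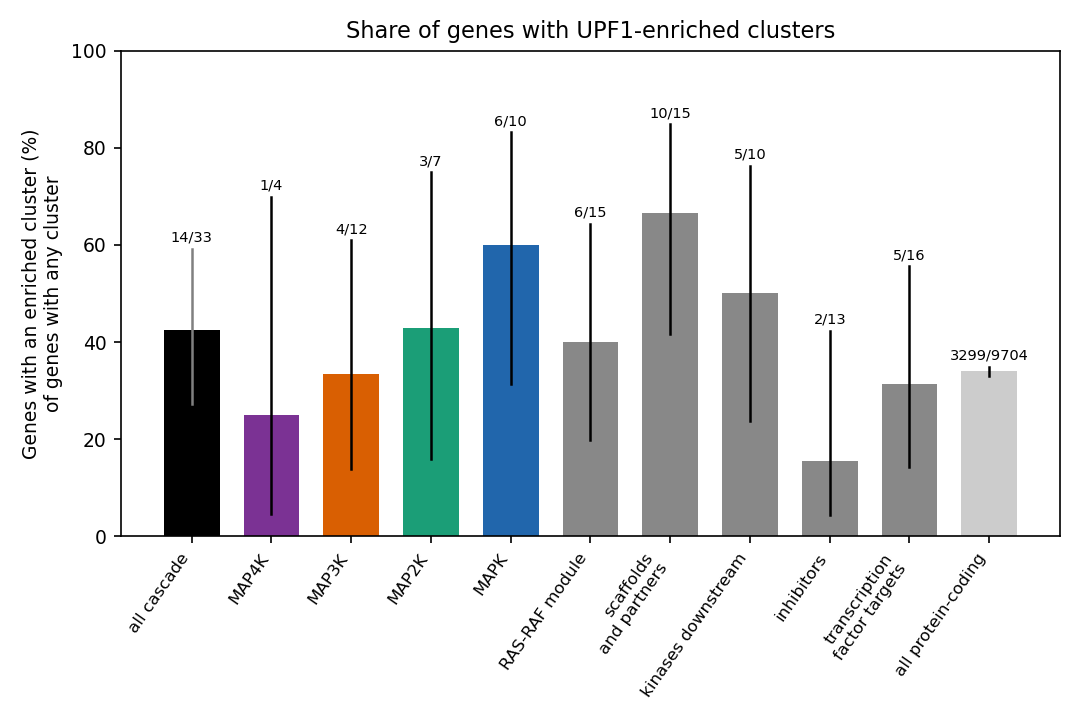
Share of genes with at least 1 enriched cluster among genes with any cluster (y axis, percent), for the cascade, its 4 tiers, 5 further lists of the pathway and all protein-coding genes. Bars give the share, vertical lines the Wilson 95% interval, and labels the counts; the scaffolds have the highest share, 10 of 15, and the inhibitors the lowest, 2 of 13.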

How the data were processed

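The deposited file lists stranded clusters of 1 UPF1 immunoprecipitate on mm10; UMI-tools, cutadapt and STAR are named in the submitters' processing notes, and the caller is not given in the sources used here. No header names the columns: the log2 fold over input and the −log10 p (capped at 400) that the authors deposited were recognised from their values. The input enters only through them. Taking the commonest fold as 3 reads against 1, read counts were reconstructed for 90059 of 90350 clusters with a fold above 0 (99.7%), from whole counts (relative tolerance 1e-06) whose exact binomial p (under 5 reads on a side) or continuity-corrected chi-square p lay within 0.05 or 1% of the deposited −log10 p; a count of 1 input read may also stand for 0 reads.

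A cluster went to the RefSeq GRCm38.p6 locus that held most of its bases, and where loci overlapped to the one on its strand, then to the only protein-coding one. Strands came from RefSeq promoter records (34 of 43 members) or from at least 80% of 2 or more clusters (5 members, among them Map4k4 and Mapk3); 4 members had none. On loci with a RefSeq strand, this rule gave that strand in 99.7%. Of the 481 member clusters 468 lay in no other locus.

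The members and lists were chosen with earlier results of these data known. Every member is in the counts; 1 enriched member is not reported singly here. The others were described, in full where enriched or with 8 or more clusters. Other lists name up to 4 enriched genes and the one with most clusters and none enriched. Araf and Dusp7 were added after their values were seen. The 11 alternatives changed 1 setting at a time. Python 3.11.15, pandas 2.3.3 and scipy 1.17.1 were used.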

Additional observations from a re-analysis of the deposited data

Results flagged for a closer look

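Map3k15 had no cluster of its own, but 8 clusters lay inside its locus on the minus strand and were given to the overlapping gene Pdha1, which RefSeq places on that strand. Of these, 6 were enriched, with a highest log2 fold of 5.26. The strand of Map3k15 was not given in the tables used, so whether any of this signal belongs to it was not tested.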

How the results depend on the processing

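A log2 fold of at least 4 left 8 cascade genes enriched (24.2%, beside 24.4% of all protein-coding genes), with 27 clusters, 1 MAP2K and 2 MAP3Ks. A −log10 p of at least 5 left 7 genes (21.2%, beside 26.1%), 31 clusters, 1 MAP2K and 1 MAP3K. A −log10 p of at least 10 left 6 genes (18.2%, beside 15.8%), 25 clusters, 3 MAPKs, 1 MAP2K and 1 MAP3K. Under both p thresholds, 100% of enriched clusters lay within 5000 nt of the 3′ end. Leaving clusters with 1 input read uncalled gave 9 genes (27.3%, beside 21.7% of all protein-coding genes), 29 clusters and 2 MAP3Ks. Of the enriched cascade clusters, 51.1% lay within 2000 nt of the 3′ end, against 66.0% over all protein-coding genes. That difference was not tested, and few genes held many of these clusters, so it is not read as a trait of the cascade. The other 51 of 70 recomputed values stayed within 1.5 times the reported count or inside its interval. Some of them could not move. The median highest fold does not use the enrichment call, so the fold, p and input-count settings leave it unchanged. At 1 input read the p threshold alone needs 24 reads, a log2 fold of 3.56, so a lower fold threshold adds no such cluster. The same 14 genes were enriched at a log2 fold of at least 2, with clusters inside 1 locus only or wholly inside their locus, without clusters under 20 nt, and with touching clusters merged. Merging gave 37 enriched clusters, where 47 were counted unmerged, and several enriched clusters of Map4k4 directly touched one another.

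No paired analysis was possible because each group has 1 library. No replicate was left out either. At 1 input read, a cluster with fewer than 24 immunoprecipitate reads does not pass.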

Other observations

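One cluster lay on the strand of Map2k7 just past the annotated end of its locus, outside every locus, with a log2 fold of 1.73, and was not counted for the gene. On the opposite strand inside the Map3k12 locus, 3 clusters were given to Pcbp2, with log2 folds from -0.61 to 0.35.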
